A study of Mus musculus with 8 samples.

Results

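Aminoacyl-tRNA synthetases are the enzymes that join each amino acid to its transfer RNA (tRNA), and their messenger RNAs (mRNAs) were followed here in mouse pluripotent stem cells. The members were chosen by name: every gene whose symbol is an amino acid letter followed by "ars", with or without a 1 or 2, together with Eprs, Farsa, Farsb and the scaffold genes Aimp1 and Aimp2. Only probe sets annotated with a single gene symbol were used, and the rule itself reads names and no measured value. The rule found 37 genes, read by 75 probe sets, among 18193 genes and 34945 probe sets with 1 symbol. By compartment, 17 members encode cytosolic forms, 16 mitochondrial forms, 2 (Gars and Kars) forms that serve both compartments and 2 scaffold proteins. A further probe set that names Aars together with another gene was left out, and the aspartyl forms were not analysed here.

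Each synthetase activity recognises its own amino acid and the matching tRNAs, and the charged tRNA is what the ribosome reads. In the cytosol of animal cells a group of synthetases is held in a large multisynthetase complex by scaffold proteins that include Aimp1 and Aimp2, whereas other synthetases are found outside it. Mitochondria translate their own mRNAs and need their own charged tRNAs, and for most amino acids a separate nuclear gene encodes the mitochondrial enzyme. Many cytosolic synthetase genes are known targets of ATF4, the transcription factor of the integrated stress response, which is switched on when uncharged tRNA accumulates.

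The cells were 3 lines of mouse induced pluripotent stem (iPS) cells, described by the submitters as integration-free, and 1 control line of mouse embryonic stem (ES) cells. Every group was C57BL/6 and male, was taken at passage 7 to 10 and was grown in N2B27 medium with mouse LIF, the cytokine that holds mouse cells in the pluripotent state. Each line was read on 2 Affymetrix arrays whose titles call them biological replicates, which makes 6 iPS and 2 ES arrays. No label says whether replicates came from separate cultures, so p-values rest on the spread between arrays of a line, possibly a technical one, and a difference between iPS cells and ES cells rests on 1 ES line.

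The deposited arrays had a common scale, with a trimmed mean signal of 500.004 in each, and the share of probe sets over a low-signal floor of 37.1 ran between 58.1% and 61.4%. The median signal was 62.3 and 64.3 in iPS line 2 and between 54.1 and 59.9 elsewhere. The 3'/5' signal ratio of beta-actin, a sign of RNA integrity, was 1.74 and 1.79 in line 2 and between 1.49 and 1.62 in the other arrays. All 8 pluripotency markers exceeded the floor in every array, which fits the labels, and their summed signal was between 111825 and 124000. Of 9 fibroblast markers, 2 to 5 exceeded the floor, with Col1a1, Postn and Dcn below it in all arrays. Col1a2 exceeded it in all 8 arrays, at 37.1 to 109, and Thy1 in 6. Pdgfra did so in 5, Twist1 in 3, and Col3a1 and Lum in 2 each.

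All 37 members exceeded the floor in all 8 arrays, so every synthetase gene of the rule was measured in ES cells and in every iPS line. The summed signal of the 37 was between 107565 and 113296 in the 6 iPS arrays and was 105590 and 107615 in the ES arrays. Differences are given on the scale of log2(signal + 12), with standard errors (SE) from limma, and a gene is called where its Benjamini-Hochberg adjusted p is below 0.05 over all 14004 genes tested. Since these are bulk samples, fewer cells that express a gene and less RNA per cell cannot be told apart.

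The mean of the 3 iPS lines was first set against ES cells. Such a mean can be carried by a single line, so a call in it need not be shared by all 3. Of the 37 members 1, the seryl-tRNA synthetase gene Sars, was called, and it was higher. The background was 7.30% of all genes called, 4.27% higher and 3.03% lower, so the members' share lay below it. The median difference of the members was 0.03, against 0.02 over all genes. It was 0.08 for the cytosolic and 0.00 for the mitochondrial forms. The members spanned -0.28 (Hars2) to 0.28 (the valyl form Vars), and the 95% intervals of all 17 cytosolic and of 15 of the 16 mitochondrial genes lay within a 1.5-fold change in either direction.

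Sars, the cytosolic enzyme that charges serine tRNAs and also the selenocysteine tRNA, had signals of 2922 and 2693 in iPS line 1, 3049 and 2822 in line 2, 2445 and 2456 in line 3, and 2211 and 2364 in ES cells. No iPS array was as low as either ES array, and line 3 lay closest to them. The gene rose 1.19-fold in the mean of the lines (0.25 ± 0.06 SE, limma adjusted p = 0.0222). Against ES cells the difference was 0.36 ± 0.07 in line 2 (adjusted p = 0.00285), 0.29 in line 1 (adjusted p = 0.0588) and 0.10 in line 3 (adjusted p = 0.529). A second probe set of Sars gave 0.26 in the mean. The call in the mean was lost without either ES array (0.20 without replicate 1 and 0.30 without replicate 2), without iPS line 2 (0.20) and after median centring of the arrays (0.25, adjusted p = 0.0652). The call in line 2 was kept under all 19 alternatives.

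Besides Sars, 4 members had all 6 iPS arrays above both ES arrays, namely Eprs, Lars, Nars and Tars2, and 2 had them all below, Kars and Hars2. These are 5 of 37 above and 2 of 37 below, beside 7.16% and 5.74% of all genes. Apart from Sars, these genes did not pass in the mean: the mitochondrial threonyl form Tars2 was at 0.24 ± 0.07 (adjusted p = 0.0605) and the asparaginyl form Nars at 0.13 ± 0.04 (adjusted p = 0.0856). Hars2, the mitochondrial histidyl form, was at -0.28 ± 0.12 (adjusted p = 0.191). Kars, which charges lysine tRNAs in both compartments, was at -0.06 ± 0.05 (adjusted p = 0.53).

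**Figure D1:**
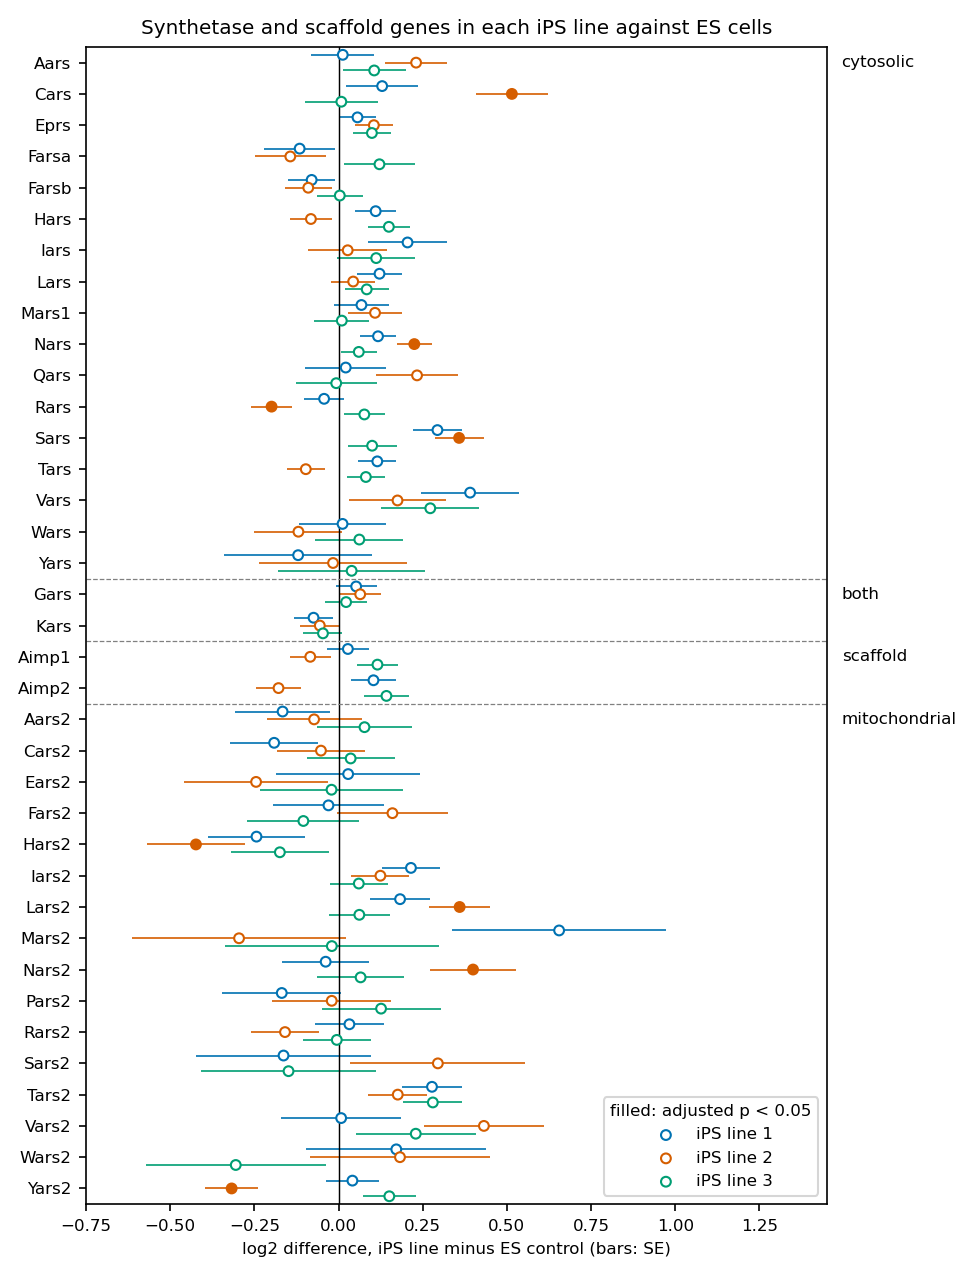
Log2 difference of each of the 37 genes in iPS lines 1, 2 and 3 against ES cells (horizontal axis, bars are SE, 2 arrays a line), grouped by compartment, with genes called at adjusted p below 0.05 filled. All 8 filled points belong to line 2, and most points of lines 1 and 3 lie near 0.

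Line 1 and line 3 each asked whether a single line departs from ES cells, and in neither was a member called. In line 1, 0 of 37 passed (5 at an unadjusted p under 0.05), beside 2.34% of all genes, 1.21% higher and 1.12% lower. In line 3, 0 of 37 passed (2 at an unadjusted p under 0.05), beside 4.16% of all genes, 1.59% higher and 2.57% lower. Lines 1 and 3 against each other also gave 0 of 37 (2 at an unadjusted p under 0.05), beside 1.41% of all genes, 1.06% higher and 0.350% lower. The members' medians were 0.03 in line 1 and 0.06 in line 3. In line 3, 16 of the 17 cytosolic forms had a positive difference (14 under quantile normalization and 17 with median centring), beside 6848 of all 14004 genes. Their median was 0.08 beside -0.01 over all genes, but the single differences were small, at most 0.27 (Vars, adjusted p = 0.362). All 17 differences subtract the same 2 ES arrays, so their signs are not independent.

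iPS line 2 held all the other calls. The comparisons of single lines with ES cells share the ES arrays. Against ES cells, 5 members rose (Cars, Nars, Sars, Lars2 and Nars2) and 3 fell (Rars, Hars2 and Yars2). That is 8 of 37, or 21.6%, beside 26.7% of all genes (16.1% higher and 10.6% lower), so the members were called no more often than genes at large. Differences from the mean of iPS lines 1 and 3 use no ES signal, although the ES arrays share in the estimate of spread behind the p-values. Against that mean, 4 rose (Cars, Nars, Lars2 and Nars2) and 6 fell (Aimp1, Aimp2, Hars, Rars, Tars and Yars2). These 10 make 27.0%, beside 32.6% of all genes (19.7% higher and 12.9% lower). The comparisons share the line 2 arrays. In both, the members moved in both directions and by less than 2-fold, and their medians were 0.03 and -0.01, against 0.07 and 0.08 over all genes.

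The balance of higher and lower calls depended on the scale. With each array centred on its median, which shifts the median of all genes by -0.13 in the comparison with lines 1 and 3, 1 member was higher and 8 lower there, and 2 were higher and 4 lower against ES cells. Quantile normalization gave 5 higher and 4 lower against lines 1 and 3, and 6 higher and 2 lower against ES cells. On each scale the members' median in the comparison with lines 1 and 3 lay below that of all genes: -0.01 against 0.08 as deposited, -0.07 against 0.01 with quantile normalization and -0.14 against -0.05 with centring. With quantile normalization the cytosolic median there was 0.02 and the mitochondrial -0.14. Against ES cells the members' median was below that of all genes as deposited and with centring (-0.06 against -0.02). With quantile normalization it was above (0.03 against 0.01). Quantile normalization ended the calls of Rars and Nars2 in both comparisons and of Hars, Aimp1 and Lars2 against lines 1 and 3. It also added calls, of Aars and Eprs against ES cells and of Aars, Hars2, Qars and Sars against lines 1 and 3. Centring added Aimp2 against ES cells, and Iars and Rars2 against lines 1 and 3. Without limma's variance trend, Aimp2, Cars and Yars2 kept their calls against lines 1 and 3, and Cars, Lars2, Sars and Yars2 theirs against ES cells. The part of the actin 3'/5' ratio of line 2 in these differences was not tested.

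Both arrays of line 2 lay above all 6 other arrays in 7 members (Aars, Cars, Nars, Lars2, Nars2, Sars2 and Vars2) and below them in 6 (Aimp1, Aimp2, Hars, Rars, Tars and Yars2). Over all genes, 23.8% lay above and 14.3% below. The genes below are the same 6 that were called lower against lines 1 and 3, and 3 of those above, Aars, Sars2 and Vars2, did not pass.

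Among synthetases of the multisynthetase complex, 1 of 7, the arginyl form Rars, was called in line 2, both against ES cells and against lines 1 and 3, beside 26.7% and 32.6% of all genes. Its signals were 6397 and 6054 in line 2, 6758 and 7117 in line 1, 7326 and 7750.4 in line 3, and 7259 and 7033 in ES cells. The line 2 arrays were the lowest of the 8. Rars fell by 0.22 ± 0.05 against lines 1 and 3 (-0.22, adjusted p = 0.00664) and by 0.20 ± 0.06 against ES cells (-0.20, adjusted p = 0.0267). Without replicate 2 of line 2 both calls were lost (-0.18 and -0.16), and the call against ES cells was also lost without either ES array. The bifunctional glutamyl-prolyl enzyme Eprs (0.10 in line 2 against ES cells), the isoleucyl Iars (0.03), the leucyl Lars (0.04), the methionyl Mars1 (0.11), the glutaminyl Qars (0.23) and Kars (-0.06) did not pass. Other Qars probe sets were at -0.03, -0.23 and -0.02 in line 2 against ES cells, and a second Iars probe set was at 0.27.

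The scaffold genes Aimp1 and Aimp2 were both lower in line 2 than in the other iPS lines. Aimp2, whose protein holds several synthetases in the complex, had signals of 2892 and 2615 in line 2, 3401 and 3293 in line 1, 3420.4 and 3455 in line 3, and 3072 and 3156 in ES cells. ES cells lay between line 2 and the other iPS lines, with no overlap. Aimp2 fell 1.23-fold against lines 1 and 3 (-0.30 ± 0.06, adjusted p = 0.00166), and this call was kept under all 19 alternatives, with values between -0.43 and -0.23. Against ES cells the difference was -0.18 (adjusted p = 0.071). A second Aimp2 probe set gave -0.38 against lines 1 and 3.

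Aimp1, the scaffold protein that also binds tRNA, had signals of 4199 and 4259 in line 2, 4495 and 4646 in line 1, 4892 and 4824 in line 3, and 4311 and 4662 in ES cells. Line 2 was again the lowest, next to 1 ES array. Aimp1 fell by 0.16 ± 0.05 against lines 1 and 3 (-0.16, adjusted p = 0.0404). That call was lost on leaving out any 1 of the 6 iPS arrays, with values between -0.17 and -0.14, and under quantile normalization. The third scaffold gene, Eef1e1, was at -0.03 in the same comparison (adjusted p = 0.71).

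**Figure D2:**
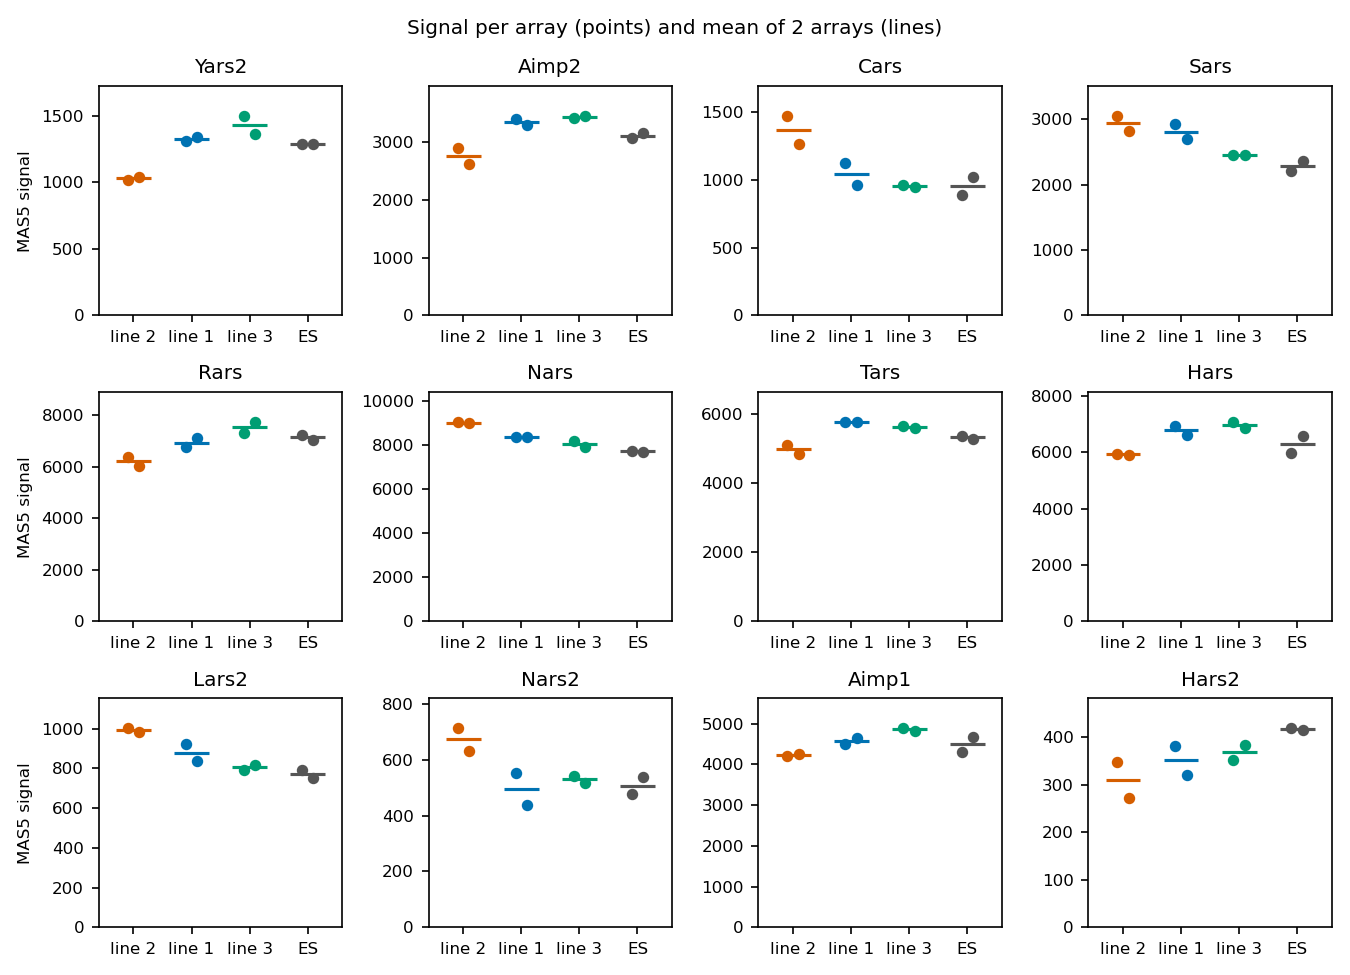
Deposited signal (vertical axis, linear, from 0) in each of the 8 arrays for the 12 genes called in at least 1 comparison, with iPS lines 2, 1 and 3 and then ES cells from left to right, points for arrays and lines for means of 2. Yars2, Aimp2, Rars, Tars, Hars and Aimp1 are lowest in line 2, and Cars, Nars, Lars2 and Nars2 are highest there.

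Of 12 cytosolic synthetases counted outside the complex, 3 rose in line 2 against ES cells and 0 fell, beside 16.1% of all genes higher and 10.6% lower. Cars, which charges cysteine tRNAs, had signals of 1470.1 and 1262 in line 2, 1124 and 962 in line 1, 963 and 948 in line 3, and 886 and 1018 in ES cells. The line 2 arrays were the highest, though they differed between themselves. Cars rose 1.43-fold against ES cells (0.51 ± 0.11, adjusted p = 0.00341) and 1.36-fold against lines 1 and 3 (0.45 ± 0.09, adjusted p = 0.00267). The call against lines 1 and 3 was lost without replicate 1 of line 2 (0.34), and both calls were lost with the mean of all probe sets, although the differences were larger there (0.67, adjusted p = 0.0562, and 0.51, adjusted p = 0.0748). The second probe set of Cars exceeded the floor in 3 arrays.

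Nars, the asparaginyl form, had signals of 9046 and 8993 in line 2, 8357 and 8382 in line 1, 8191 and 7899.8 in line 3, and 7740.3 and 7691 in ES cells. The order was line 2, line 1, line 3 and ES cells, and neighbours in it did not overlap. Nars rose by 0.23 ± 0.05 in line 2 against ES cells (adjusted p = 0.00694) and by 0.14 ± 0.05 against lines 1 and 3 (adjusted p = 0.0368). The call against lines 1 and 3 was lost on leaving out any 1 of the 8 arrays (0.12 to 0.15) and with centring (0.01), and a second probe set gave 0.03. The call against ES cells was lost with centring (0.14).

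Tars and Hars fell in line 2 against the other iPS lines but were not called against ES cells. Tars, the threonyl form, had signals of 5097 and 4844 in line 2, 5754 and 5764 in line 1, 5652 and 5598 in line 3, and 5356 and 5278 in ES cells. Its difference was -0.20 ± 0.05 against lines 1 and 3 (adjusted p = 0.00852) and -0.10 against ES cells (adjusted p = 0.243). Hars, the histidyl form, had signals of 5954 and 5894 in line 2, 6922 and 6622 in line 1, 7075 and 6842 in line 3, and 5986 and 6570.1 in ES cells. For Hars the lower ES array lay next to line 2. Its difference was -0.21 ± 0.05 against lines 1 and 3 (adjusted p = 0.00875) and -0.08 against ES cells (adjusted p = 0.377). Both calls were lost without replicate 2 of line 2 (-0.16 for Tars and -0.20 for Hars).

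The other 7 genes of this group did not pass in any comparison on the deposited scale. In line 2 against ES cells, the alanyl Aars was at 0.23, the valyl Vars at 0.18, the glycyl Gars at 0.06, the tyrosyl Yars at -0.02, the tryptophanyl Wars at -0.12 and the phenylalanyl subunits Farsa and Farsb at -0.14 and -0.09. Sars is described above, with 0.16 against lines 1 and 3 (adjusted p = 0.0689).

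Among mitochondrial forms, 2 of 16 rose and 2 fell in line 2 against ES cells, beside 16.1% of all genes higher and 10.6% lower. Yars2, which charges the mitochondrial tyrosine tRNA, had signals of 1022 and 1041 in line 2, 1312 and 1340.3 in line 1, 1501 and 1366 in line 3, and 1288 in each ES array. The line 2 arrays stood apart below all others. Yars2 fell 1.33-fold against lines 1 and 3 (-0.41 ± 0.07, adjusted p = 0.000557), a call kept under all 19 alternatives with values between -0.54 and -0.38. It fell 1.25-fold against ES cells (-0.32 ± 0.08, adjusted p = 0.0101), and that call was lost without either ES array (-0.33 to -0.30). A second Yars2 probe set gave -0.47 against lines 1 and 3.

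Lars2 and Nars2, the mitochondrial leucyl and asparaginyl forms, rose in line 2. Lars2 had signals of 1004 and 984 in line 2, 921 and 837 in line 1, 794 and 819 in line 3, and 795 and 750.2 in ES cells. Its difference was 0.36 ± 0.09 against ES cells (adjusted p = 0.0101) and 0.24 ± 0.08 against lines 1 and 3 (adjusted p = 0.0334). Both Lars2 calls were lost with centring (0.27 and 0.11) and when all probe sets of the gene were averaged (0.31, adjusted p = 0.509, and 0.35, adjusted p = 0.359). The call against ES cells was also lost without ES replicate 2, and the call against lines 1 and 3 without replicate 2 of line 1 or any 1 array of lines 2 and 3 (0.20 to 0.27).

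Nars2 had signals of 713 and 631 in line 2, 552 and 439 in line 1, 542 and 518 in line 3, and 476 and 537 in ES cells. The line 2 arrays were the highest of the 8. Nars2 rose by 0.40 ± 0.13 against ES cells (adjusted p = 0.0355) and by 0.39 ± 0.11 against lines 1 and 3 (adjusted p = 0.0177). Both calls were lost without replicate 1 of line 2 (0.31 and 0.30), with quantile normalization and with centring. The call against ES cells was lost without either ES array, and that against lines 1 and 3 without replicate 2 of line 1.

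Hars2, the mitochondrial histidyl form, had signals of 348 and 272 in line 2, 382 and 322 in line 1, 353 and 384 in line 3, and 419.6 and 414 in ES cells. Both ES arrays were the highest, and the iPS lines overlapped. Hars2 fell by 0.42 ± 0.15 in line 2 against ES cells (-0.42, adjusted p = 0.0479). This call was lost without either ES array, without either array of line 3 and without replicate 2 of line 2 (-0.25), and a second, dimmer Hars2 probe set gave -0.03. Hars and Hars2 are neighbours on chromosome 18 with 0 protein-coding genes between them, in the RefSeq annotation of the mouse.

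The other 12 mitochondrial genes did not pass in any comparison on the deposited scale, and their errors were wider. The median SE in a comparison of 1 line with ES cells was 0.143 for mitochondrial and 0.0813 for cytosolic forms. In line 2 the 95% interval stayed within a 1.5-fold change in either direction for 9 of 16 mitochondrial genes, against 16 of 17 cytosolic ones. Against ES cells, line 2 was at 0.43 ± 0.18 for Vars2 (adjusted p = 0.0975), 0.29 ± 0.26 for Sars2 (adjusted p = 0.457) and -0.24 ± 0.21 for Ears2 (adjusted p = 0.451). Fars2 (0.16), Iars2 (0.12), Tars2 (0.18), Wars2 (0.18), Aars2 (-0.07), Cars2 (-0.05), Pars2 (-0.02) and Rars2 (-0.16) were nearer 0. Mars2 was the least certain, at 0.66 ± 0.32 in line 1 but -0.30 ± 0.32 in line 2 and -0.02 ± 0.32 in line 3, each against ES cells. Its signals, 46 to 115 over the arrays, were near the floor.

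For 13 amino acids, 1 cytosolic gene was set beside 1 mitochondrial gene. Phenylalanine, whose cytosolic enzyme has a pair of subunit genes, and glutamate and proline, which share Eprs in the cytosol, were left out of this pairing. In line 2 against lines 1 and 3 the differences had the same sign in 7 pairs and opposite signs in 6. Both genes were called in 1 pair (Nars and Nars2, both higher), 1 gene in 6 pairs and neither in 6. For cysteine, Cars was at 0.45 and Cars2 at 0.03. For tyrosine, Yars was at 0.02 ± 0.19 and Yars2 at -0.41 ± 0.07. Whether the forms of a pair differed from each other was not tested.

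**Figure D3:**
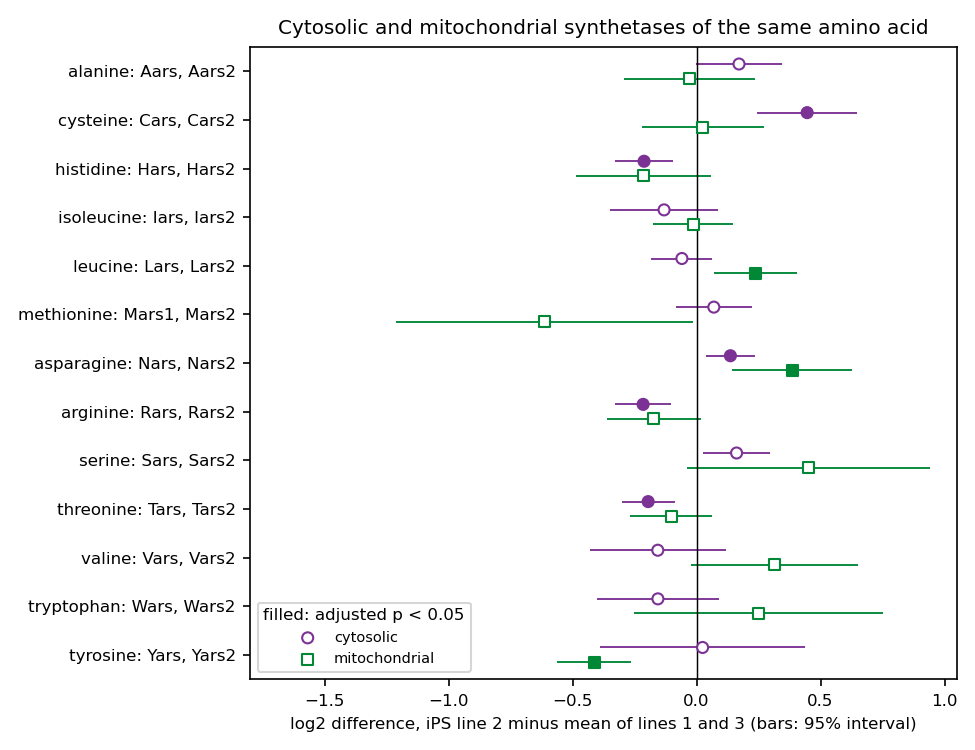
Log2 difference of iPS line 2 minus the mean of lines 1 and 3 (horizontal axis) for the cytosolic gene (circles) and the mitochondrial gene (squares) of the 13 amino acids paired, with 95% intervals from limma and called genes filled. Asparagine is the 1 pair with both genes filled, and the mitochondrial intervals are mostly the wider ones.

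For 19 members more than 1 probe set exceeded the floor in all 8 arrays. Their differences had 1 sign in 12 genes in the iPS mean, and in 14 genes in line 2 against lines 1 and 3. The widest range in the mean among these probe sets was in Farsa, where the probe set standing for the gene was at -0.05 and 3 others at 0.43, -0.25 and -0.31. Outside this cut, a dim Farsb probe set, over the floor in 7 arrays with a mean signal of 77.2, was at 1.25 in the mean. It was at 1.18, 1.09 and 1.48 in lines 1, 2 and 3, while the other Farsb probe sets were at -0.06, 0.00 and -0.15 in the mean. In Wars, the tryptophanyl form that is also an interferon-inducible gene, a probe set other than the one standing for the gene was at 0.51 in the iPS mean, while the other 3 lay between -0.03 and 0.05. Tars2 had a second probe set at -0.03 in the mean, against 0.24 for the brightest.

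Promoters were read to describe the bases around the start sites. Windows of 300 bases, from 250 before to 50 after the start site, were read from a RefSeq table of GRCm38.p6 for 28 of the 37 members. They covered 7 of the 12 called members, without Cars, Hars, Hars2, Nars and Rars. Lars, which was not called, was also left out. Absence of a member from the windows read here need not mean absence from that table. Both strands were searched for TGATGNAA (CARE, the element bound by ATF4 with C/EBP proteins), TGACGTCA (CRE), CACGTG (E-box) and GGGCGG (GC box), which do not overlap each other in the windows shown. The windows of the genes with a call that was kept under all alternatives run, Sars, Aimp2 and Yars2, and that of Tars, which holds 3 of the motifs, are printed 5′ to 3′ on the strand of the gene, with motifs in capitals. They lie at chr3:108445210-108445509 on the minus strand (Sars), chr5:143909790-143910089 on the minus strand (Aimp2), chr16:16302715-16303014 on the plus strand (Yars2) and chr15:11399609-11399908 on the minus strand (Tars).
Sars: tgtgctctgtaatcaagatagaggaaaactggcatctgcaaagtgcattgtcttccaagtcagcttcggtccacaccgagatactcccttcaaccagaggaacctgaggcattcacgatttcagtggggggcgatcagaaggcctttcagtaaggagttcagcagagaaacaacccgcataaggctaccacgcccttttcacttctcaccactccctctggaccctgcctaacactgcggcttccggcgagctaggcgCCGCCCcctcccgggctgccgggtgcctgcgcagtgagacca
Aimp2: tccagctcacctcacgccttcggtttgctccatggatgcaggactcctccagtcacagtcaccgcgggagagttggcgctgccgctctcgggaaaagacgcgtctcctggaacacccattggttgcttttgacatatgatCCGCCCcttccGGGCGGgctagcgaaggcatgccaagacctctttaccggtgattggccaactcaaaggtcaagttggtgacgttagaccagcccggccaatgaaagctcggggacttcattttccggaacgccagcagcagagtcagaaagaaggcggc
Yars2: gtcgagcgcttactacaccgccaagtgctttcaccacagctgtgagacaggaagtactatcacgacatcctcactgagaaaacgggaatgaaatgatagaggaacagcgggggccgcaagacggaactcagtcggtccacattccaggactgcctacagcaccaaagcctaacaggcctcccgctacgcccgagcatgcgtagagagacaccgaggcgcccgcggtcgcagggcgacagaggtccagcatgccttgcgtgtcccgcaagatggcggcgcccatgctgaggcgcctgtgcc
Tars: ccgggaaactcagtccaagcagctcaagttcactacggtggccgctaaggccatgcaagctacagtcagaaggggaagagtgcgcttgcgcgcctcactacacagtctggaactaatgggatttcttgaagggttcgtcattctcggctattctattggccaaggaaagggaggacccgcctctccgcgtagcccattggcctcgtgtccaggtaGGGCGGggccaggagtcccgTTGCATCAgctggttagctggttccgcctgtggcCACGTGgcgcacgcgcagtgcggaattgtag

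The capitals mark a GC box in Sars, a pair of GC boxes in Aimp2, and a GC box, a CARE and an E-box, in that order, in Tars. The Yars2 window held none of the 4 motifs. A CARE lay in 5 of the 30 windows of members (Aars, Gars, Iars, Tars and Yars), or 16.7%, beside 3.97% of the 32851 windows of all genes. Its first base in Tars was at -15 from the start site. In line 2 against ES cells the 5 genes were at 0.23 (Aars), 0.06 (Gars), 0.03 (Iars), -0.10 (Tars) and -0.02 (Yars), none called. An E-box lay in 5 of the 30 (16.7%, beside 7.15% of all windows), a GC box in 19 (63.3%, beside 35.7%) and a CRE in 0 (beside 1.79%). The 30 windows stand for 28 of the 37 members, and whether the windows of all genes were limited in the same way was not examined. The difference between these shares was not tested. The median GC content was 57.8% in the windows of members and 52.7% in all windows. A match of letters is a description of the sequence and not a binding site.

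The integrated stress response was examined beside the synthetases because ATF4 controls genes of both amino acid supply and tRNA charging. Of 32 measured genes of this list, 18 rose and 1 fell in line 2 against ES cells, or 59.4% beside 26.7% of all genes, with a median of 0.42 beside 0.07. Ddit4, an inhibitor of mTORC1, rose by 2.59 ± 0.07 (adjusted p = 4.72e-10), the stress-induced factor Nupr1 by 1.77 ± 0.08 and the lipoprotein receptor gene Vldlr by 2.27 ± 0.17, whereas Cth, the enzyme that makes cysteine from cystathionine, fell by 0.81 ± 0.06 (-0.81). Against lines 1 and 3, 19 rose and 2 fell, beside 32.6% of all genes called. Against ES cells, 7 rose and 1 fell in line 1 (2.34% of all genes called), and 4 rose and 4 fell in line 3 (4.16% of all genes). In the mean of the lines 11 rose and 1 fell (6 and 1 without line 2), beside 7.30% of all genes. In the same line 2, 5 of the 37 synthetase and scaffold genes rose and 3 fell, with a median of 0.03; the difference between the lists was not tested.

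**Figure D4:**
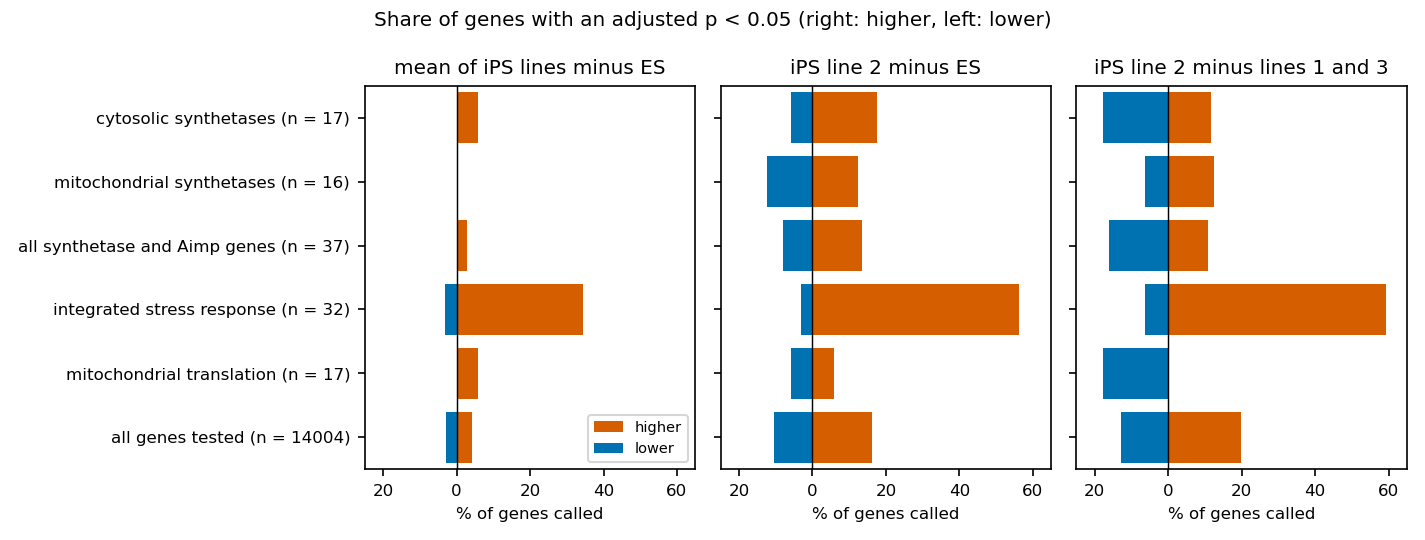
Percent of genes called higher (right) and lower (left) at adjusted p below 0.05 in iPS lines on average and in iPS line 2 against ES cells, and in line 2 against lines 1 and 3, for synthetase classes, pathway lists and all 14004 genes. In line 2 the integrated stress response list has 59.4% called against ES cells, while synthetase genes have 21.6%, close to the 26.7% of all genes.

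Of 12 measured partners of the synthetases and genes of tRNA handling, 1 rose in the mean of the lines: Dtd1, the deacylase that removes D-amino acids from tRNA, by 0.86 ± 0.07 (adjusted p = 1.07e-05), beside 7.30% of all genes called. Dtd1 was called in each line, at 0.77 in line 1, at 0.98 in line 2 and at 0.82 in line 3. In line 2 against ES cells Dtd1 and the tRNA exporter Xpot (0.19, adjusted p = 0.0468) rose, and Prorsd1, which resembles an editing domain of prolyl-tRNA synthetase, fell by 0.58 (-0.58, adjusted p = 0.000702), beside 26.7% of all genes called. Prorsd1 was also the 1 gene of the list called against lines 1 and 3 (-0.70), where 32.6% of all genes were called. Eef1e1 was at 0.13 in the mean (adjusted p = 0.129).

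Of 17 measured genes of mitochondrial translation and tRNA modification, 1 rose in the mean, Qrsl1, a subunit of the amidotransferase that makes mitochondrial glutaminyl-tRNA (0.28 ± 0.06, adjusted p = 0.018). Over all genes, 7.30% were called there. Without iPS line 2 Qrsl1 was at 0.27 and no longer passed (adjusted p = 0.0582). Against ES cells it rose in line 3 (0.34, adjusted p = 0.0334) and in line 2 (0.32, adjusted p = 0.00982) and was at 0.20 in line 1 (adjusted p = 0.274). In line 2 against ES cells Elac2, which trims the 3′ ends of tRNA precursors, fell by 0.61 ± 0.09 (-0.61, adjusted p = 0.00035), so 1 gene rose and 1 fell there, beside 26.7% of all genes called. Against lines 1 and 3, 3 fell, beside 12.9% of all genes lower: Elac2 (-0.69), Gtpbp3 (-0.58), which modifies the wobble base of mitochondrial tRNAs, and Trnt1 (-0.33), which adds the CCA end to tRNAs. Of 13 measured interferon-inducible genes, a list kept beside Wars, 1 rose and 1 fell in the mean (Gbp2 at 1.29 and Xaf1 at -1.25), beside 7.30% of all genes called, and Wars was at -0.02.

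Signs of other cells were read in the same arrays. Of 6 trophoblast markers, 4 to 6 exceeded the floor, with summed signals of 3774 to 4205 in line 2, 2676 to 3138 in line 1, 2495 to 2806 in line 3, and 2200.2 to 2279.5 in ES cells. Most of that signal was Tfap2c (3056 to 3556 in line 2 and 1532 to 1694 in ES cells), while Gata3 was below the floor in line 2 and Elf5 exceeded it in 1 array. Eomes, Cdx2 and Hand1 exceeded the floor in all 8 arrays, with Eomes at 426 to 548 in line 2 and 416 to 450 in ES cells. Of 5 neural markers, 4 or 5 exceeded the floor, and their summed signals were 752 to 814 in line 2, 982 to 1057 in line 1, 952 to 959.6 in line 3, and 609 to 715 in ES cells. Of 8 primitive endoderm markers, 5 to 7 exceeded the floor, Afp in no array, with sums between 366 and 473 over all arrays. Gata6, Sox17, Sox7 and Dab2 exceeded it in all 8 arrays. Gata6 was at 84 to 104 in line 2 and 59 to 66 in ES cells, and Sox7 at 38 to 52 and 62 to 97. The part of these markers in the differences of the synthetase genes was not tested.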

How the data were processed

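The deposited values were linear intensity signals of the probe sets of a mouse Affymetrix 3' array, and the submitters' processing notes name MAS5 as the authors' tool. Sources used here give neither its version nor its scaling target. Total RNA was taken up in Trizol and biotinylated, per the labels' protocols. The table held 45101 probe sets, 64 of them controls. The platform annotation gave 1 symbol for 34945, several for 932 and none for 9160, and only the first kind was used.

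Signals were used as deposited, as log2(signal + 12), where 12 is near the 20th percentile. This scale understates changes at low signal. Probe sets needed a signal over 37.1, the 40th percentile, in at least 2 arrays, and the brightest stood for its gene, which left 14004 genes. limma 3.58.1 in R 4.3.3 (lmFit, eBayes with an intensity trend) fitted the 4 group means over 8 arrays, with 4 residual degrees of freedom, which moderation raised to 12.4. All tests were two-sided, with Benjamini-Hochberg adjustment over all 14004 genes. The comparison of the iPS mean was tried on simulated data with independent noise in each array, which cannot show how lines or cultures vary. Members called in any of 6 comparisons are given with all array signals, and from each pathway list up to 4 genes with the smallest adjusted p.

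The members and lists were chosen with earlier results of these data known, and the grouping by complex and by amino acid was made after values were seen. Replicate numbers did not pair the arrays: same-numbered arrays deviated together at r between -0.01 and 0.03 in 6 pairs of groups. Replicates correlated at 0.981 to 0.983 and shared no identical columns. The number of arrays limits the precision. Alternatives covered scaling, pseudocount, filter, probe set choice, variance trend, replicate block, the groups in the fit, each array left out, iPS line 2 left out and line means as samples.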

Additional observations from a re-analysis of the deposited data

Results flagged for a closer look

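The difference between iPS line 2 and the mean of iPS lines 1 and 3 passed limma's test, as a difference between lines, in 10 members. Line 2 was higher for Cars (0.446, adjusted p = 0.00267), Nars2 (0.386, adjusted p = 0.0177), Lars2 (0.237, adjusted p = 0.0334) and Nars (0.136, adjusted p = 0.0368). It was lower for Yars2 (-0.413, adjusted p = 0.000557), Aimp2 (-0.301, adjusted p = 0.00166), Rars (-0.216, adjusted p = 0.00664), Hars (-0.212, adjusted p = 0.00875), Tars (-0.195, adjusted p = 0.00852) and Aimp1 (-0.156, adjusted p = 0.0404). All are log2 differences. Of all genes, 32.6% passed the same test.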

How the results depend on the processing

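Over 19 member results and their alternatives, 283 of 362 values kept their call, 79 lost it and 0 changed sign. Yars2 and Aimp2 in line 2 against lines 1 and 3 and Sars in line 2 against ES cells kept theirs throughout. In the mean of the iPS lines, where 1 member was called, the count was 0 with median centring, without the variance trend, without iPS line 2 and with line means as samples, 2 with the mean of all probe sets (Nars and Sars), and 0 to 2 on leaving out 1 array. Of all genes, 1022 were called there, 289 without the trend, 492 without line 2, 319 to 978 on leaving out 1 array, and 0 with line means as samples by limma (281 at an unadjusted p under 0.05). For line 2 against ES cells, 8 members became 4 without the trend and 4 to 10 on leaving out 1 array (4 without either ES array). For line 2 against lines 1 and 3, 10 became 3 without the trend and 6 to 9 on leaving out 1 array (6 without replicate 2 of line 1). Line 1 and line 3 against ES cells and against each other gave 0 under every alternative run. Lists in the mean without line 2, a choice made after seeing the data, held 7 calls instead of 12 (integrated stress response), 0 instead of 1 (mitochondrial translation), 1 instead of 2 (interferon-inducible) and 1 in both cases (partners). With the replicate number as a block, the same members were called (1, 8 and 10), while the count over all genes in the mean was 1035 instead of 1022. Of the members, Mars2 (46 to 115) and Wars2 (70 to 155) lay nearest the floor of 37.1. Hars2 (272 to 420) and Nars2 (439 to 713) were dimmer than most members but well above it. Having 2 arrays a line limits what can be called. Where an array was left out, the lone array of its line was assumed to vary like the other groups. For the iPS mean, a fit of only the groups compared is the fit of all arrays.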
